A study of Homo sapiens with 6 samples.

Results

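The clustered histone genes are the genes of the HIST1, HIST2, HIST3 and HIST4 loci, which code for the histones that package newly made DNA. They were chosen by symbol alone, as every symbol that starts with HIST1H to HIST4H, without the 13 symbols that carry a pseudogene number. The rule found 76 of the 56638 gene symbols listed for the 6 libraries, of which 55 lie in HIST1, 16 in HIST2, 4 in HIST3 and 1 in HIST4. By the histone they code for, 6 belonged to the linker histone H1, 17 to H2A, 23 to H2B, 15 to H3 and 15 to H4.

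Most of these genes are switched on as cells enter S phase, when NPAT and its cofactors drive their transcription at nuclear bodies beside the histone loci. Their messenger RNAs are unusual in that they end in a short hairpin, the stem-loop, in place of a poly(A) tail, and the stem-loop binding protein SLBP guides their processing, translation and decay. Some of the genes can also give a longer transcript with a conventional poly(A) tail, which is known from cells that have left the cycle or differentiated.

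The 6 libraries came from a human colorectal cancer cell line, 3 of cells given control siRNA (a nonspecific sequence) and 3 of cells given siRNA against the long noncoding RNA GLCC1 (lncRNA-AF339830). Cells of both groups were grown in RPMI-1640 medium with fetal bovine serum and carry no other stated alteration. The line is SW480 by the sample labels and DLD-1 by the study's methods. The groups follow the titles, whereas the names of the libraries pair each group with the opposite siRNA, and if those names were right every direction below would turn. No symbol of GLCC1 itself was found among the genes listed, so the knockdown was not checked on its target. The study states for its experiments in general that replicates were independent and gathered separately, whereas the labels of these 6 libraries do not name the cultures. Between 11948790 and 19042516 read pairs per library fell on genes, and GLCC1 siRNA replicate 2, the shallowest, differed most from the other 2 of its group. Their chi-square per degree of freedom against it was 19.5 and 20.4, against 3.53 between themselves. All 10 markers of colorectal epithelium had counts, with a summed level of 5681 to 6220 counts per 1000000 read pairs (CPM) in the control libraries and 2279 to 2721 in the GLCC1 siRNA libraries. Most of it was keratin, as the means of KRT8, KRT19 and KRT18 went from 3584, 881 and 423 to 1177, 347 and 120 CPM. EPCAM, CDX1, CDH1 and LGALS4 were also called lower, with smaller falls. CDX2, KRT20 and VIL1 were not called, and VIL1 went from 205 to 237 CPM. Of 6 fibroblast markers COL1A2, DCN and LUM were at 0 and 3 had counts, with a summed level of 16.1 to 19.9 CPM in control and 10.7 to 13.3 in GLCC1 siRNA libraries, nearly all of it COL1A1 (1035 counts, called lower) and PDGFRB (470 counts). Of 5 leukocyte markers PTPRC was at 0 and 4 had counts, 2.88 to 4.16 CPM in control and 3.26 to 5.42 in GLCC1 siRNA libraries, nearly all of it CD14 (388 counts). Of 4 endothelial markers PECAM1, CDH5 and KDR were at 0 and VWF had 89 counts.

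The libraries were built with the TruSeq RNA kit, which selects RNA by its poly(A) tail, so a histone message that ends in the stem-loop is largely lost before sequencing. The stem-loop was therefore looked for in the genome. A pattern of a 6-base stem that begins with GG, a 4-base loop and the reverse complement of the stem was searched on the coding strand in the 100 bases after the stop codon. Of the 67 members with an annotated stop codon, 65 held it, against 0.592% of 19761 stop codons of all genes. The same 16 bases, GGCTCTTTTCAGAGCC, served in 39 of them, and 7 other forms shared the rest. HIST1H2AG and HIST1H2AK did not hold the pattern in this window. The sequences of the 6 most counted members that hold it are shown here because they show the mark of a message without a tail in the genes that carry most counts, in GRCh37 (hg19) and written as the DNA of the coding strand, 5′ to 3′, with the hairpin in capitals. They lie at chr6:27114140-27114165 (minus strand), chr6:26055967-26055992 (minus), chr6:26124892-26124917 (plus), chr1:149857733-149857758 (minus), chr6:26158810-26158835 (plus) and chr1:149858936-149858961 (plus) in the order given.
HIST1H2BK: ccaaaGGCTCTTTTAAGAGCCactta
HIST1H1C: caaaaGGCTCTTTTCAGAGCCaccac
HIST1H2AC: ccaaaGGCTCTTTTCAGAGCCcccct
HIST2H2BE: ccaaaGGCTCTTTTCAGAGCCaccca
HIST1H2BD: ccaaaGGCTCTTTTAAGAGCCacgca
HIST2H2AC: ccaaaGGCTCTTTTTAGAGCCaccca

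Counts on the clustered histone genes were few. All 76 together held 4280 read pairs in the 6 libraries, which was 0.0029% to 0.0032% of all counts in a control library and 0.0055% to 0.0062% of those of a GLCC1 siRNA library. In 55 members at least 1 read pair was counted, and 21 had none. Just 11 reached a mean of 1 CPM, and 10 had 10 or more counts in every library. A few genes held most of the counts, since HIST1H2BK alone took 21.5%, the first 3 took 48.1% and the first 10 took 74.8%. In H1, HIST1H1C held 94.4% of the class, and in H4, HIST4H4 held 53.6%. H3 was the class with the fewest counts, 188 over its 15 genes, and its most counted member, HIST1H3H, held 48.

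**Figure D1:**
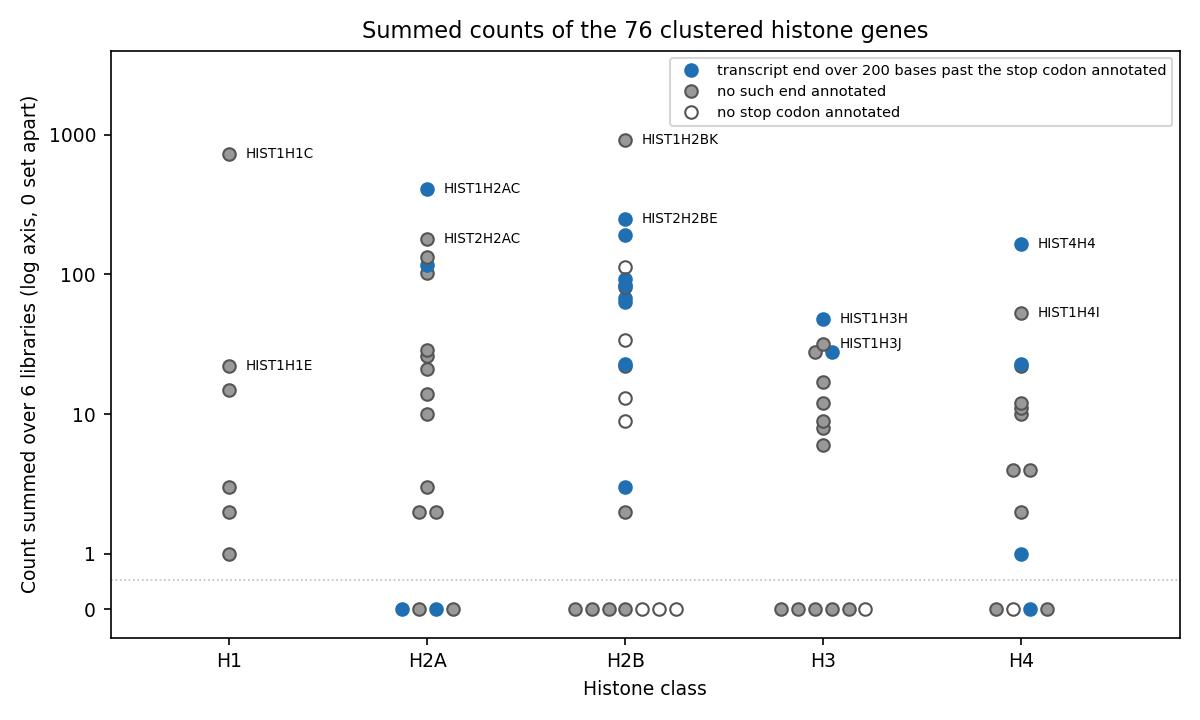
Counts summed over the 6 libraries (vertical log axis, genes without counts set apart at 0) for each of the 76 clustered histone genes, by histone class. Blue points are genes with an annotated transcript end more than 200 bases past the stop codon, grey points those without one and open points those without an annotated stop codon; HIST1H2BK with 922 and HIST1H1C with 727 stand highest.

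The 21 members with no count were HIST1H2AA, HIST1H2AD, HIST1H2BA, HIST1H2BB, HIST1H2BH, HIST1H2BI, HIST1H3C, HIST1H3F, HIST1H3G, HIST1H4F, HIST1H4G, HIST1H4L, HIST2H2AA3, HIST2H2AA4, HIST2H2BA, HIST2H2BB, HIST2H3A, HIST2H3C, HIST2H3DP1, HIST2H4A and HIST3H2BA. A count of 0 allows up to 0.158 to 0.251 CPM in a library, taking 3 counts as the limit. This limit uses library totals without the TMM scaling of the other CPM values, and covers counting error only. Several of these genes are copies of each other. Among 67 members with a single coding exon, 8 had every 150-base word, the length of a read, in common with another member, and these 8 held 15 counts in all. They were the pairs HIST2H2AA3 and HIST2H2AA4, HIST2H3A and HIST2H3C, HIST2H4A and HIST2H4B, and HIST1H4J and HIST1H4K, each with identical coding sequence. Read pairs that map equally well to both copies are left out by the counting program, so the level of such genes is uncertain. In 56 of the 67 no such word was shared with another member, and the rest of the genome was not searched. RefSeq calls 6 members pseudogenes, of which HIST2H2BC and HIST2H2BD had counts. A further 12 had between 1 and 4 counts and were not tested, namely HIST1H1A, HIST1H1D, HIST1H1T, HIST1H2AB, HIST1H2AM, HIST1H2BE, HIST1H2BM, HIST1H4A, HIST1H4B, HIST1H4J, HIST2H2AB and HIST2H4B. HIST1H1T, HIST1H2AA and HIST1H2BA are known as testis histones.

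An annotated transcript end more than 200 bases past the stop codon, beyond the stem-loop, was present for 18 of the 67 members in GENCODE 44 mapped to GRCh37, a later annotation than the one the authors counted on. These 18 had a median of 55.5 counts over the 6 libraries and 15 had counts, whereas the other 49 had a median of 8 and 36 had counts. Together the 18 held 36.5% of the counts and the 49 held 59.6%. In H2B the 8 genes with such an end had a median of 76 counts and the 8 without had a median of 1. The order did not hold for every gene, since HIST1H2BK and HIST1H1C, the 2 most counted, have none in this annotation. These counts were not scaled for exon length. When they were, the median per kilobase of annotated exon was 0.258 CPM for the 18 and 0.165 CPM for the 49. With and without such an end it was 0.331 and 0.0192 CPM in H2B, 0.327 and 0.298 in H2A, and 0.244 and 0.14 in H3. In H4 the order turned, with 0.0585 and 0.185 CPM. Per kilobase of annotated exon, which allows levels of genes to be compared, HIST1H2BK had a mean of 18.9 CPM, HIST1H1C 10.0, HIST2H2AC 3.60, HIST1H2AG 2.69 and HIST1H2AC 2.52. All of these but HIST1H2AC have only a short end in this annotation, whereas RefSeq gives HIST1H2BK a longer span, so its length here may be too small. In 11 of the 18 the word AATAAA, the signal for adding a poly(A) tail, stood in the last 50 bases of the farthest transcript. For HIST1H2AC, HIST2H2BE and HIST1H2BD, which rose in the comparison below, this stretch is shown as the place of a possible tail, with the word in capitals, at chr6:26139309-26139328 (plus), chr1:149856020-149856039 (minus) and chr6:26171546-26171565 (plus).
HIST1H2AC, far end: atgaggtAATAAAaggtaat
HIST2H2BE, far end: tgttattAATAAAgttacca
HIST1H2BD, far end: tataattAATAAAatctgcg

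Comparison of GLCC1 siRNA with control siRNA asks what loss of the lncRNA does to expression. Several clustered histone genes, led by HIST1H2AC, HIST1H2BD, HIST2H2BE and HIST1H1C, were higher with GLCC1 siRNA. Of the 43 members tested, 10 rose and 0 fell at an adjusted p under 0.05, from edgeR's quasi-likelihood test with Benjamini-Hochberg adjustment over all 23074 genes tested. HIST1H2AC and HIST1H2BD rose by 3.46-fold and 3.50-fold, HIST2H2BE rose 2.68-fold and HIST1H1C 2.08-fold. At an unadjusted p under 0.05, 13 were higher and 0 lower, and the share of all genes at that threshold is not given here. The 13 include HIST1H2AK and HIST3H2BB, which passed the filter on low counts only through the GLCC1 siRNA group. The DESeq2 Wald test also called 0 lower. In all genes tested, 14.9% were called higher and 16.7% lower, whereas in the members 23.3% were called higher. A mean of 1 to 10 CPM was held by 4497 genes, and 20.8% of those were called higher. All 11 members with a mean of at least 1 CPM lay in this range, and 8 of them rose. Below 1 CPM 4.93% of genes were called higher, and so were 2 of the 32 members tested there. The median log2 fold change of the 43 was 0.78, against 0.03 in all genes tested and 0.11 in genes of 1 to 10 CPM. It was above 0 in 35 members and below 0 in 8. In 19 members every GLCC1 siRNA library lay above every control library, which held for 22.3% of all genes, and in 1, HIST1H3J, every one lay below. The share of all genes that lay below is not given here. Members pass the filter on low counts when either group holds 5 counts, and 8 of the 43 passed through the GLCC1 siRNA group alone, so the counts over the 43 favour higher values. Of the 33 that reached 5 counts in both groups, 9 rose.

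With the DESeq2 Wald test 5 members rose in place of 10. These were HIST1H1C, HIST1H2AC, HIST1H2BD, HIST1H2BK and HIST2H2BE, or 11.6% of the members tested, against 13.6% of all genes in that test. Among genes of 1 to 10 CPM it called 5 of 11 members and 764 of the 4497 genes. Without control siRNA replicate 1 the number was 4, without control siRNA replicate 2 it was 6, and without control siRNA replicate 3 or GLCC1 siRNA replicate 3 it was 5. Leaving out GLCC1 siRNA replicate 2, which stands apart, gave 9. Over the 6 libraries left out in turn, 9.52% to 23.7% of members and 10.5% to 21.6% of all genes were called higher, so the share over all members was not above that of all genes in every setting. Among the 11 members of at least 1 CPM, 4 to 7 were called, and 14.7% to 26.1% of genes of 1 to 10 CPM. HIST1H2BK no longer passed without control siRNA replicate 1 or 3, and HIST1H2AG, HIST1H2AL, HIST4H4, HIST2H2BF and HIST3H2BB each lost their call in several of these settings.

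**Figure D2:**
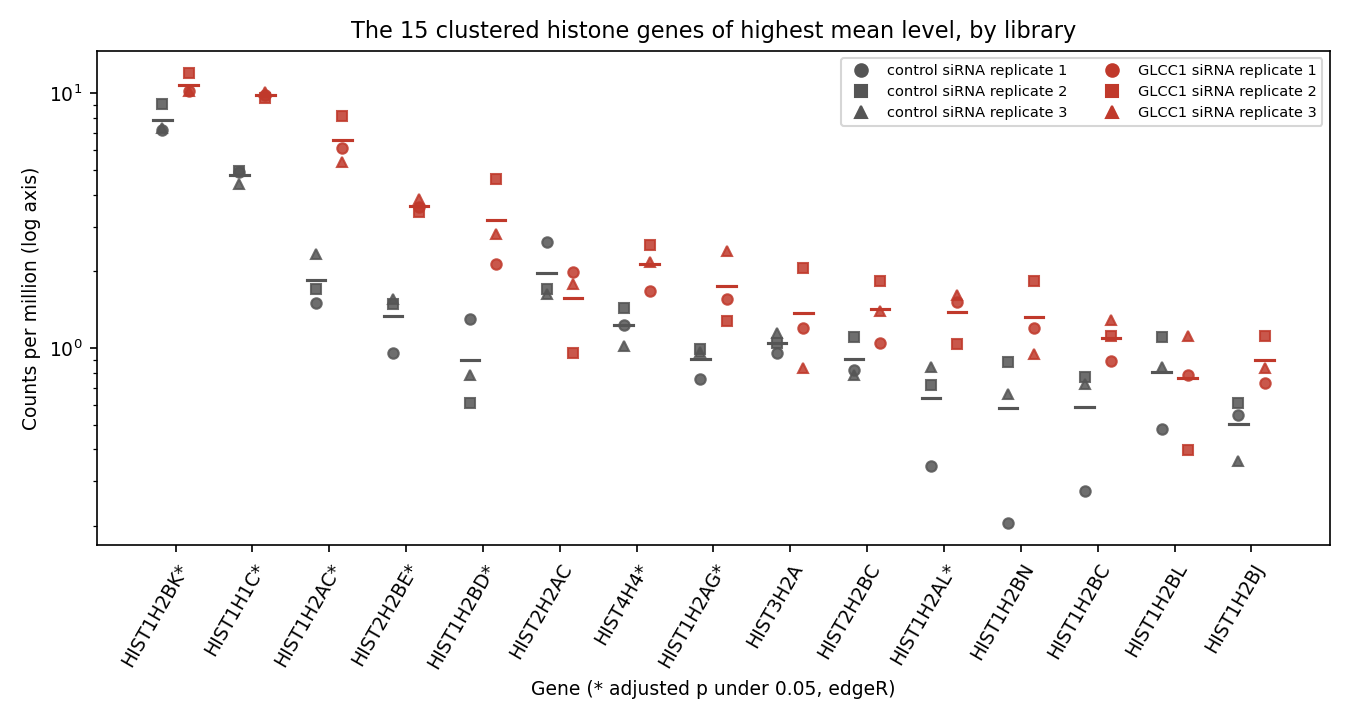
Level in CPM (vertical log axis) of the 15 clustered histone genes with the highest mean, with 1 point for each library and a line at the mean of each group of 3. In HIST1H1C, HIST1H2AC, HIST2H2BE and HIST1H2BD the GLCC1 siRNA points all lie above the control points, whereas in HIST2H2AC, HIST3H2A, HIST2H2BC and HIST1H2BL they overlap.

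Linker histone H1 binds the DNA between nucleosomes. Of the counts on its clustered genes, 94.4% lay on HIST1H1C, which codes for H1.2. HIST1H1C had 72, 90 and 73 counts in the control libraries and 189, 121 and 182 in the GLCC1 siRNA libraries. Scaled for depth these were 4.76 ± 0.32 CPM (SD, n = 3) and 9.89 ± 0.28 CPM (SD, n = 3), so the groups lay far apart and each was tight. The log2 fold change was 1.05 (standard error, SE, 0.14, edgeR adjusted p = 5.2e-05). HIST1H1E and HIST1H1B were tested on 22 and 15 counts and had log2 fold changes of 0.22 and 0.21 that did not pass.

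H2A and H2B form the dimers on either face of the nucleosome, and 8 of the 10 genes that rose code for one of them. These classes also held most of the members tested, 10 in H2A and 14 in H2B of 43. Of the 11 members with at least 1 CPM, H2A held 5 and H2B 4. Of the 8 that rose among those 11, H2A held 3 and H2B 3. A preference for these classes was not tested. HIST1H2AC, an H2A gene of the HIST1 cluster, had 22, 31 and 39 counts with control siRNA and 117, 103 and 96 with GLCC1 siRNA. Every GLCC1 siRNA library thus held more than 2 times the count of every control library, and the log2 fold change was 1.79 (SE 0.22, edgeR adjusted p = 4.05e-05). Its exons overlap those of the unnamed gene ENSG00000291336 in GENCODE 44, so some of its read pairs may belong to that gene. HIST1H2AG had 11, 18 and 16 counts against 30, 16 and 43, with a log2 fold change of 0.96 (SE 0.31, edgeR adjusted p = 0.031). HIST1H2AL had 5, 13 and 14 counts against 29, 13 and 29, with a log2 fold change of 1.12 (SE 0.35, edgeR adjusted p = 0.027). Both overlapped in raw counts and separated once scaled to the smaller size of GLCC1 siRNA replicate 2. HIST2H2AC was the second most counted H2A gene and did not pass, with 38, 31 and 27 counts against 38, 12 and 32 and a log2 fold change of -0.27 (SE 0.29, edgeR adjusted p = 0.53). HIST3H2A did not pass either, with a log2 fold change of 0.32 (SE 0.34, edgeR adjusted p = 0.52).

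HIST1H2BK was the most counted member and had the smallest change among the 10 that rose. It had 105, 165 and 121 counts in the control libraries and 197, 151 and 183 in the GLCC1 siRNA libraries, or 7.86 ± 1.07 CPM and 10.8 ± 1.01 CPM (SD, n = 3 each). The groups overlapped in raw counts and separated by little once scaled, and the log2 fold change was 0.45 (SE 0.14, edgeR adjusted p = 0.025). HIST2H2BE had 14, 27 and 26 counts against 69, 43 and 69, and the log2 fold change was 1.42 (SE 0.23, edgeR adjusted p = 3.0e-04). HIST1H2BD had 19, 11 and 13 counts against 41, 58 and 50, and the log2 fold change was 1.81 (SE 0.35, edgeR adjusted p = 1.3e-03). In both genes the lowest GLCC1 siRNA library lay above the highest control library even before scaling.

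Lower in the H2B class the values rested on few counts. HIST2H2BF had 3, 10 and 4 counts against 11, 19 and 16, with a log2 fold change of 1.46 (SE 0.50, edgeR adjusted p = 0.040), and its exons overlap FCGR1A on the opposite strand. Whether the authors counted by strand is not given in the sources used here, so reads of those genes cannot be told apart. HIST3H2BB had 1, 2 and 0 counts against 10, 2 and 8, and passed the filter only through the GLCC1 siRNA libraries. Its ratio of summed counts scaled for depth was 6.63, with an exact 95% interval for counting error of 1.97 to 34.8. Since the filter let it in through the group where it is high, this is a description and nothing is drawn from its call. Both are named although they lie below 1 CPM, and were chosen after their values were seen. HIST1H2BN, HIST1H2BC and HIST1H2BJ had positive log2 fold changes of 1.09, 0.85 and 0.78 and did not pass, with edgeR adjusted p-values of 0.069, 0.11 and 0.14. HIST1H2BN passed with library totals (edgeR adjusted p = 0.041), when genes with 1 count in any library were kept (0.022) and with the replicate number as a block (0.031). HIST2H2BC, called a pseudogene by RefSeq, had 0.61, and HIST1H2BL had -0.05.

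H3 and H4 make up the core tetramer of the nucleosome, and no H3 gene passed. All 9 H3 genes tested had fewer than 1 CPM, with log2 fold changes between -1.46 for HIST1H3I and 1.93 for HIST3H3, a pair that held 8 and 6 counts in all. HIST1H3I passed the filter only through the control libraries and HIST3H3 only through the GLCC1 siRNA libraries, so nothing is drawn from these extremes. At an unadjusted p under 0.05 the number of H3 genes was also 0, and with the DESeq2 Wald test 0 passed. HIST1H3H had 9, 5 and 9 counts with control siRNA and 11, 6 and 8 with GLCC1 siRNA, so no difference was detectable at this depth. In H4, all 7 genes tested had a log2 fold change above 0 and HIST4H4 passed. HIST1H4D had 0, 0 and 2 counts with control siRNA and 5, 3 and 1 with GLCC1 siRNA. HIST1H4K had 0, 1 and 1 against 5, 1 and 2. Both passed the filter only through the GLCC1 siRNA libraries, so nothing is drawn from their sign. HIST4H4 stands alone on chromosome 12, apart from the clusters, and its annotated transcript runs past the stem-loop. It had 18, 26 and 17 counts against 32, 32 and 39, with a log2 fold change of 0.76 (SE 0.26, edgeR adjusted p = 0.042). HIST1H4I, the next in H4, had 9, 7 and 6 counts against 13, 6 and 12 and did not pass.

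**Figure D3:**
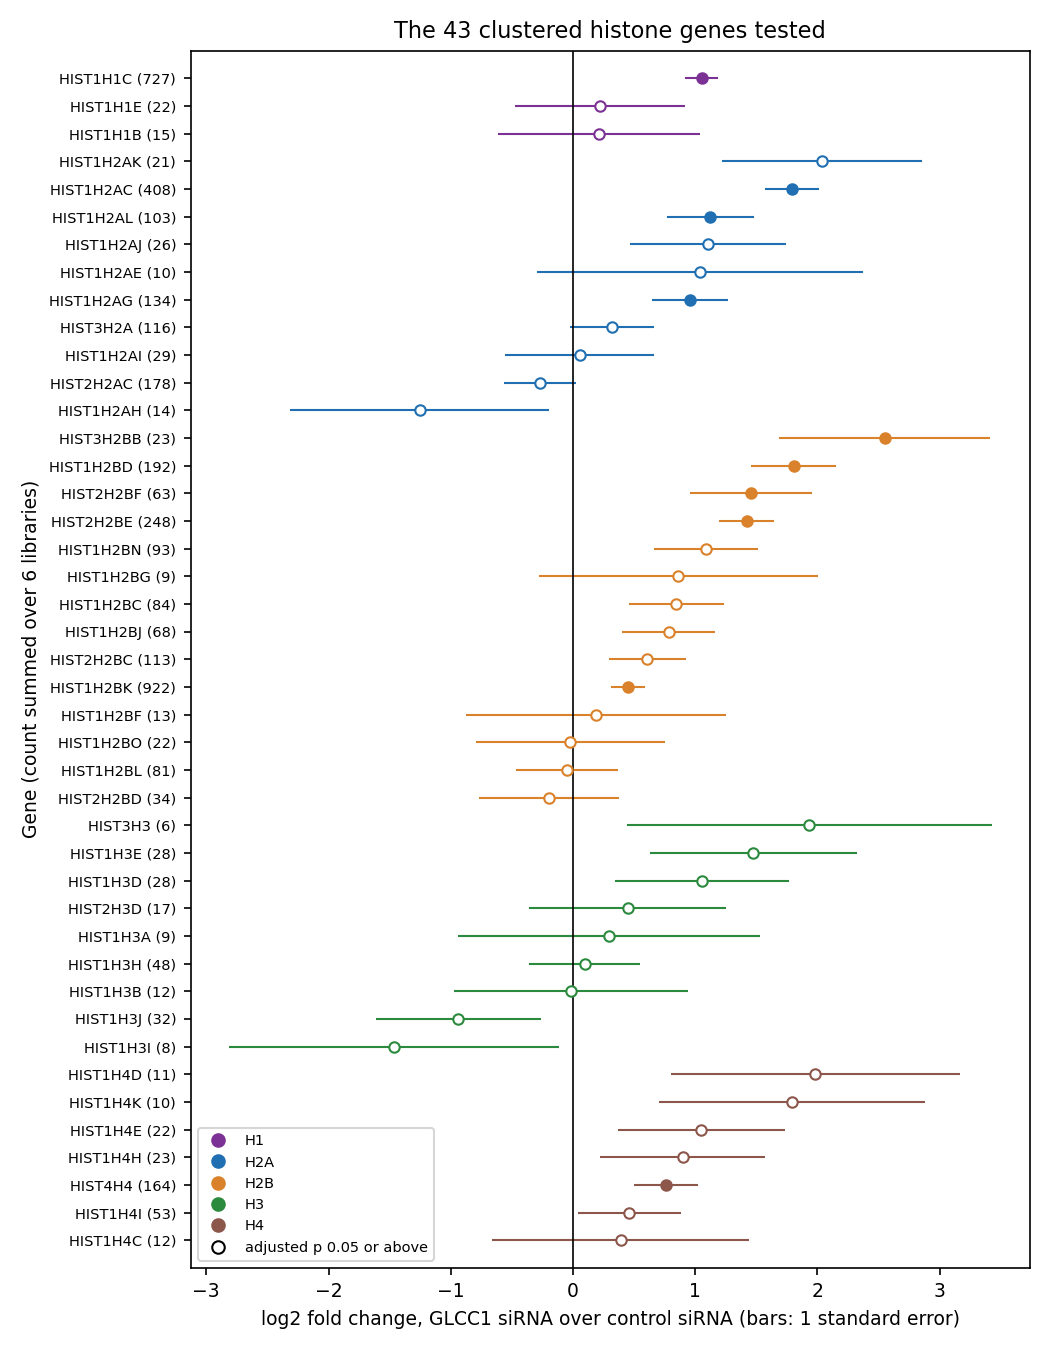
Log2 fold change of GLCC1 siRNA over control siRNA with 1 standard error (horizontal axis) for the 43 clustered histone genes tested, by class, with the count summed over 6 libraries beside each name. Filled points are the 10 genes with an edgeR adjusted p under 0.05, all to the right of 0, and standard errors widen as counts fall.

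Summed over all members, the level was 29.3, 33.2 and 30.4 CPM in the control libraries and 52.9, 58.5 and 55.6 CPM in the GLCC1 siRNA libraries. The means were 31.0 ± 2.01 and 55.7 ± 2.81 CPM (SD, n = 3 each), a ratio of 1.80, and the groups were separated by several times their spread. The ratio was 2.03 for H1, 1.92 for H2A, 1.72 for H2B and 1.85 for H4. For H3 it was 1.17, and its libraries overlapped, from 1.32 to 2.05 CPM in control and from 1.27 to 2.46 CPM in GLCC1 siRNA. Among the clusters HIST1 had a ratio of 1.85, HIST2 of 1.60, HIST3 of 1.62 and HIST4, a single gene, of 1.73. These sums follow their most counted genes, so the H1 ratio is that of HIST1H1C. After poly(A) selection these sums do not measure all histone RNA, and the share of it with a tail was not measured. In a bulk library, more cells in S phase and more of the selected histone RNA in each cell cannot be told apart.

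**Figure D4:**
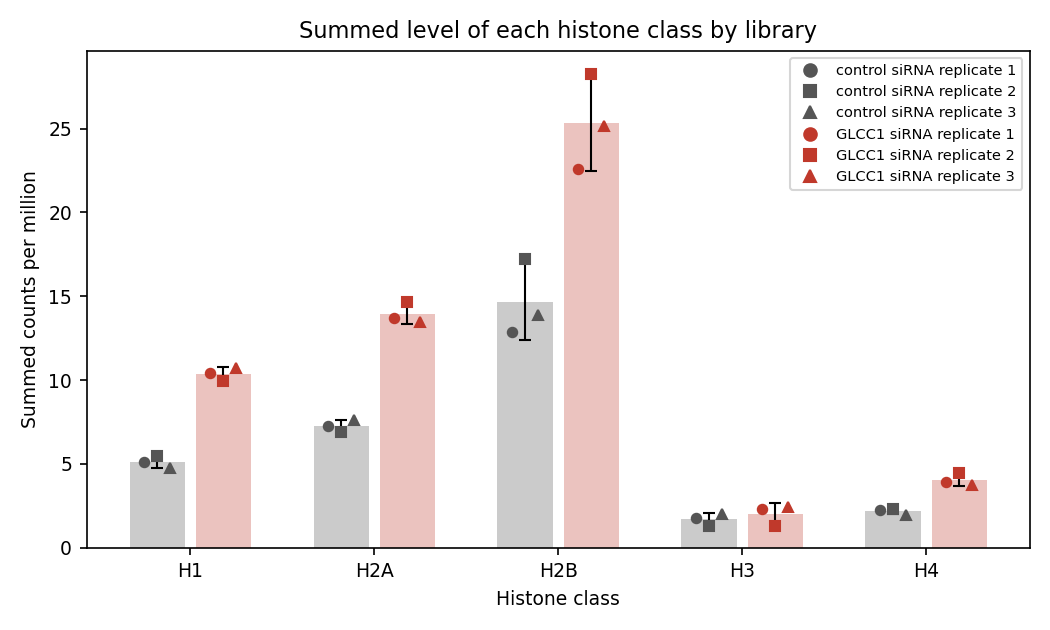
Summed level in CPM (vertical axis from 0) of the genes of each histone class, with bars at the mean, error bars of 1 SD over 3 libraries and a point for each library. GLCC1 siRNA lies above control siRNA in H1, H2A, H2B and H4 without overlap, and both overlap in H3.

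Other RNAs made without a poly(A) tail were set beside the histone genes as a reading of the RNA selection. The list held 17 such RNAs, among them small nuclear, nucleolar, signal recognition, telomerase, vault and Y RNAs. Of the 17, 15 had counts and 11 were tested, of which 2 rose and the other 9 did not pass. In all genes tested 14.9% were called higher. The summed level of the list was 18.7, 23.9 and 31.0 CPM in the control libraries and 23.6, 20.8 and 26.8 CPM in the GLCC1 siRNA libraries. These sums overlapped, but most of the counts lay on RN7SL1 (880) and RN7SL2 (1078). Their log2 fold changes were -0.23 and -0.19 and did not pass. The sum thus follows RN7SL1 and RN7SL2 and says little of the other RNAs listed. The 2 that rose were RN7SK, with a log2 fold change of 1.06 (edgeR adjusted p = 0.046), and SNORD3A, with 0.83 (edgeR adjusted p = 0.019). The share of counts on mitochondrial genes, a sign of RNA quality, was 4.74% to 4.99% with control siRNA and 4.70% to 5.21% with GLCC1 siRNA. Read pairs on no gene took 9.82% to 10.1% of all pairs with control siRNA and 10.96% to 12.7% with GLCC1 siRNA. The part of any of these, or of the cell type markers above, in the histone result was not tested.

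Histone genes often stand head to head, with a shared stretch of promoter between an H2A and an H2B gene. By GRCh37 coordinates 13 pairs of members began within 600 bases of each other on opposite strands, and 12 of them joined H2A to H2B. The word ATTTGCAT, the octamer bound by POU2F1 (OCT1), was searched for on both strands from 250 bases before to 50 after the start in RefSeq promoters of GRCh38.p14, which matched 65 members with 69 promoters. It stood in 75.0% of H2B and 68.8% of H2A promoters, in 7.14% of H3 and in 0% of H1 and H4 promoters, against 1.77% of all promoters. CCAAT stood in 85.5% of member promoters against 34.6% of all, and TATAAA in 66.7% against 11.5%. The octamer was held by 26 members, and among those tested 3 of 6 in H2A, 3 of 8 in H2B and 0 of 1 in H3 rose. Without it, 1 of 3 in H1, 0 of 3 in H2A, 2 of 4 in H2B, 0 of 6 in H3 and 1 of 6 in H4 rose. These were HIST1H1C, HIST1H2BD, HIST4H4 and HIST3H2BB, the last of which passed the filter only through the GLCC1 siRNA libraries. Of all genes tested 14.9% were called higher, and a link of the octamer to the change was not tested.

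HIST2H2BE and HIST2H2AC form 1 of these pairs, in which the first rose and the second did not pass. The 235 bases between their starts are printed because both genes are read from them, at chr1:149858233-149858467 of GRCh37 on the plus strand, with HIST2H2BE read to the left and HIST2H2AC to the right. Capitals mark TATAAA, ATTTGCAT and CCAAT on either strand.
HIST2H2BE to HIST2H2AC: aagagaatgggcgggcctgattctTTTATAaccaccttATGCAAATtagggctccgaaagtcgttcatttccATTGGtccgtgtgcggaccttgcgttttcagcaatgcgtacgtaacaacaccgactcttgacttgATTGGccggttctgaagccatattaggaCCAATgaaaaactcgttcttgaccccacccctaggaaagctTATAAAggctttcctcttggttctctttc

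In this stretch a TATAAA stands at each end, 25 bases from the start of HIST2H2BE and 24 from that of HIST2H2AC, whereas the one octamer is nearer HIST2H2BE, at 39 bases against 190. The log2 ratio of the counts of HIST2H2BE to those of HIST2H2AC, in which library size drops out, was -1.44, -0.20 and -0.05 in the control libraries and 0.86, 1.84 and 1.11 in the GLCC1 siRNA libraries. HIST2H2AC was thus the more counted gene in every control library and HIST2H2BE in every GLCC1 siRNA library. The mean ratio moved from -0.56 ± 0.76 to 1.27 ± 0.51 (SD, n = 3 each), a difference of 1.83. In GENCODE 44 HIST2H2BE has a transcript end 1801 bases past its stop codon, and HIST2H2AC ends 47 bases past it. For the 4 other pairs with counts throughout, the ratios overlapped between groups. For HIST1H2BC over HIST1H2AC the mean went from -1.77 ± 0.66 to -2.57 ± 0.45, and for HIST1H2BJ over HIST1H2AG from -0.86 ± 0.50 to -0.94 ± 0.68 (SD, n = 3 each). This pair was singled out after its values were seen, and 3 libraries against 3 cannot give an exact permutation p below 0.1.

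**Figure D5:**
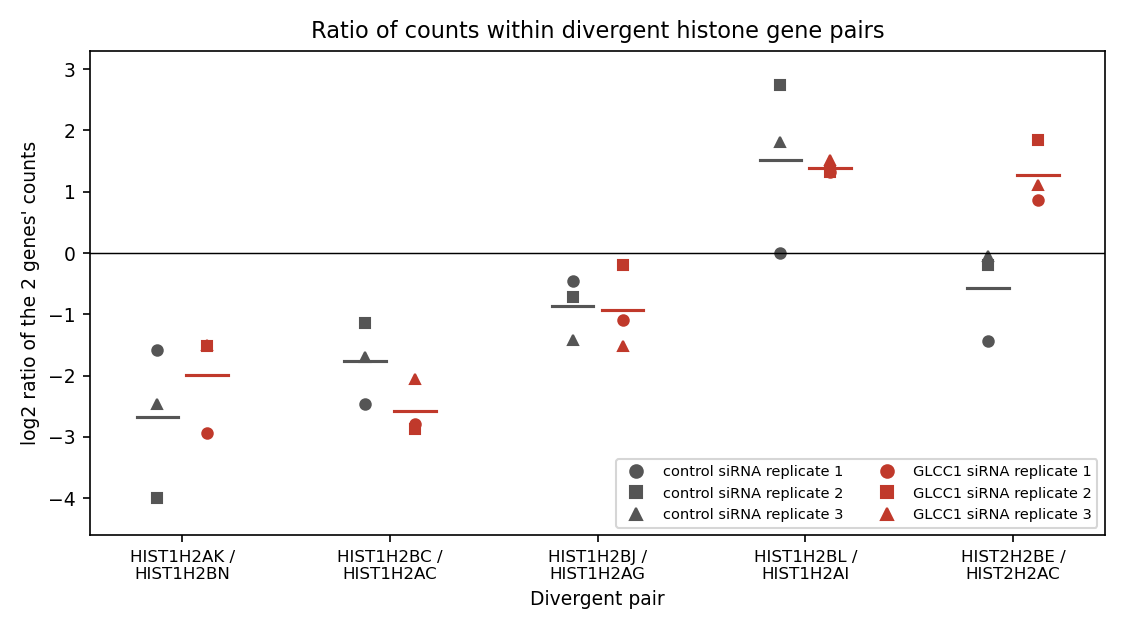
Log2 ratio of the counts of 2 histone genes that begin beside each other on opposite strands (vertical axis), for the 5 pairs with counts in every library, with a point per library and a line at each group's mean. In HIST2H2BE over HIST2H2AC the groups separate, with control libraries from -1.44 to -0.05 and GLCC1 siRNA libraries from 0.86 to 1.84, and in the other 4 pairs they overlap.

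Genes that make and process histone messages moved in both directions. Of 24 such genes 6 rose and 10 fell, with a median log2 fold change of -0.21. These were 25% and 41.7% of the list, against 14.9% and 16.7% of all genes tested. With 10 counts required in every library, 7 genes of the list and 23.5% of 14604 genes were called higher. No share for genes of like level is given for this list or those below. SLBP, which binds the stem-loop, was lower in every GLCC1 siRNA library than in every control library. Its level was 168, 160 and 157 CPM with control siRNA and 112, 120 and 120 CPM with GLCC1 siRNA. The log2 fold change of SLBP was -0.47 (SE 0.08, edgeR adjusted p = 5.2e-04). CSTF2, a subunit of the cleavage stimulation factor, fell most, by 1.29 on the log2 scale from 47.8 ± 1.33 to 19.6 ± 0.85 CPM (SD, n = 3 each). UPF1, an RNA helicase that takes part in histone mRNA decay, fell by 0.74, and NCBP2, the small subunit of the cap binding complex, fell by 0.51. ERI1, the exonuclease that trims the stem-loop, and ZCCHC6, a uridylyltransferase of the decay pathway, fell by 0.37 and 0.41. On the side of transcription, NPAT rose by 0.55 and its partner CASP8AP2 (FLASH) by 0.65, and POU2F1 rose by 0.46. LSM11, of the U7 particle that cuts histone pre-mRNA, rose by 0.59. HINFP, which activates H4 genes, fell by 0.30 (edgeR adjusted p = 0.026). With library totals in place of TMM scaling 5 of the 24 fell, and in that setting the median of all genes was 0.15 in place of 0.03. The number that fell was 5 without control siRNA replicate 3 and 6 without replicate 1 or 2.

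Histone variants, which lie outside the clusters and most of whose messages carry poly(A) tails, also moved unevenly. Of 12 listed, H2AFJ was at 0, and of the 11 tested 5 rose and 2 fell, with a median log2 fold change of 0.24. These were 45.5% and 18.2% of those tested, against 14.9% and 16.7% of all genes tested. H2AFY2, a macroH2A gene, rose by 1.31, from 38.3, 35.0 and 36.5 CPM to 90.7, 87.2 and 94.5 CPM. H3F3A, which codes for H3.3, rose by 0.76, whereas H3F3B, which codes for the same protein, had a log2 fold change of 0.03 and did not pass. H2AFV fell by 0.95 and H2AFX, the histone phosphorylated at DNA breaks, fell by 0.45. H1F0, the replacement linker histone, rose by 0.34 from 663 ± 53.1 to 837 ± 25.4 CPM (SD, n = 3 each).

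Of 22 histone chaperones, which carry histones to and from DNA, 8 rose and 3 fell, with a median log2 fold change of 0.07. These were 36.4% and 13.6% of the list, against 14.9% and 16.7% of all genes tested. ATRX rose by 0.69, CHAF1B, of the chromatin assembly factor that follows replication, by 0.68, and NASP, which stores H3 and H4, by 0.56. SPTY2D1 fell by 1.38 and RBBP4 by 0.67. The number that rose was 3 without any 1 of the control libraries and 5 without GLCC1 siRNA replicate 1 or 3, and the number that fell was 5 without GLCC1 siRNA replicate 2. Of 18 genes of S phase 9 rose and 1, SLBP, fell, with a median of 0.28. That was 50% and 5.56% of the S phase list, against the same shares of all genes. E2F1, the factor that opens S phase, rose by 1.22 and RRM2, of ribonucleotide reductase, by 0.80. CDC6 rose by 0.56, TYMS by 0.54 and MCM3 by 0.53, whereas MCM2, MCM4, MCM5, MCM6 and MCM7 had log2 fold changes of 0.02 to 0.19 and did not pass. Without GLCC1 siRNA replicate 2, or with library totals as the scale, 14 of the 18 rose. SLBP stands in this list and in that of histone message processing.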

How the data were processed

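Total RNA of 6 libraries was prepared with the TruSeq RNA kit and sequenced in 150-base pairs. The authors mapped read pairs to hg19 with TopHat 2.0.11 and deposited raw counts per gene symbol from HTSeq in union mode, without normalization, which leaves out pairs that map to several places. Lines that tally pairs on no gene took 9.82% to 12.7% of all pairs and were left out of library sizes and tests.

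As in the study's methods, a gene was kept where its counts in at least 1 group summed to 5 or more. Counts were scaled by TMM and compared in edgeR 4.0.16 (R 4.3.3) by its robust quasi-likelihood fit, with Benjamini-Hochberg adjustment over all genes. The study used DESeq2, which served as an alternative (version 1.42.0). Counts per 1000000 read pairs (CPM) are on the TMM scale. Other alternatives were DESeq2 size factors, library totals, filters of 1 count in any library or 10 in every library, a block for the replicate number, and leaving out each library. HIST1H2BK, at 9.35 CPM on average, had a standard error of 0.14 on the log2 scale and HIST2H2BF, at 0.66 CPM, one of 0.50, so precision falls with the counts.

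All 76 symbols matched a RefSeq synonym, and 71 a gene of GENCODE 44 on GRCh37. Named genes were every member with an adjusted p under 0.05 and at least 1 CPM, the 15 members of highest mean, and up to 6 called genes of each other list. HINFP, SLBP, NPAT and CASP8AP2 were named whatever their value. One S phase gene that the rule names is not reported here. The members and lists were chosen with earlier results of these data known.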

Additional observations from a re-analysis of the deposited data

How the results depend on the processing

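No member was called lower in any of the 12 alternatives, and HIST1H1C, HIST1H2AC, HIST1H2BD and HIST2H2BE were called higher in all 12. The number of members called higher was 5 with the DESeq2 Wald test and between 4 and 9 with each library left out. Their median log2 fold change was 0.90 with library totals, 0.90 with 10 counts in every library, and between 0.69 and 0.79 with each library left out. With library totals 5 processing genes fell and 14 S phase genes rose. Leaving out each library gave 5 to 13 processing genes that fell, 3 to 10 chaperones that rose, 2 to 5 chaperones that fell and 6 to 14 S phase genes that rose. Of the members that were not called, the log2 fold change of HIST1H2BL turned to 0.070 with library totals, to 0.24 without control siRNA replicate 2 and to 0.19 without GLCC1 siRNA replicate 2, within a range of -0.40 to 0.24 with each library left out. That of HIST3H2A turned to -0.036 without GLCC1 siRNA replicate 2, within a range of -0.036 to 0.59. The cause was not tested. With the replicate number as a block 10 members rose, 9 of them shared, with HIST1H2BN in place of HIST3H2BB, and 4 chaperones rose in place of 8. Same-numbered libraries had correlations of deviations of -0.16, -0.29 and -0.01, so the numbers do not pair them. Counts were too few to test 33 of the 76 members, and 32 of the 43 tested lay below 1 CPM. The filter of 10 counts in every library tested 10 members, of which 7 rose.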
